A study of Homo sapiens with 6 samples.

Results

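The genes described here serve cholesterol synthesis, its control, sterol transport and esterification, followed in HepG2, a human liver tumor cell line. They were listed by pathway knowledge, with earlier results of these data known, and were found by gene symbol. Of 27 listed symbols, 27 had a row among the 19846 genes of the deposited count table. Messenger RNA was sequenced in 3 libraries of cells grown in a hollow fiber bioreactor (3D) and 3 libraries of cells grown on flat plates (2D), all at passages 7 to 9. In the bioreactor, cells sat among interwoven fibers while medium recirculated at 23.5 mL/min with a feed of 2 mL/hour, and the medium was equal parts EMEM and DMEM with 10% serum, antibiotics and GlutaMAX. Plates were seeded at 200000 cells per square centimeter in EMEM, which was replaced every 2 days. Neither the serum content on plates nor the age of the cultures at harvest is stated in the labels. Culture form, medium and feeding differed together and cannot be told apart. HepG2 is a single tumor line, not primary liver. Nothing in the labels says that the 3 libraries of a group were grown independently, so each p-value reflects how far these libraries scattered, which may be technical.

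Cells build cholesterol from acetyl-CoA. Acetyl-CoA units are joined and reduced to mevalonate, mevalonate is converted to isoprenoid diphosphates, and these are joined into squalene, which is closed into lanosterol and trimmed to cholesterol. The transcription factor SREBP2, encoded by SREBF2, is held in the endoplasmic reticulum by SCAP and the INSIG proteins while sterols are plentiful, and it is released to activate genes of synthesis and uptake when sterols fall. The liver is a main site of this pathway, and it stores surplus cholesterol as esters made by the SOAT enzymes.

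Total counts ranged from 9530820 to 15897619 in 3D libraries and from 16270376 to 17943529 in 2D libraries. The library of 3D replicate 1 had the fewest counts and lay apart from the other 3D libraries on the second principal component, which held 14.1% of the variance. All 8 markers of the hepatocyte line were in the table, among them ALB at 9849 ± 3472 CPM in 3D libraries and 6237 ± 1322 CPM in 2D libraries (CPM, counts scaled to a common library size after TMM scaling; SD, n = 3 each), which was not called (edgeR adjusted p = 0.0698). Of the 8, APOA1 and TF were called higher in 3D and 0 lower in edgeR, and TTR, APOA2 and HNF4A had log2 fold changes of −0.43, −0.21 and −0.12. DESeq2 called ALB (adjusted p = 0.015) and AFP (0.0319) higher too. With each library corrected for transcript length and GC content, ALB (edgeR adjusted p = 0.0489) and AFP (0.03) were also called higher, and APOA2 was called lower (0.0264). Of 6 fibroblast markers 2 were in the table, with 1 called higher and 1 lower and a summed level of 9.28 to 21.2 CPM in 3D and 7.40 to 15.5 CPM in 2D. Of 4 endothelial markers 3 were in the table, with none called in the edgeR test and sums of 2.46 to 5.49 CPM in 3D and 2.00 to 4.79 CPM in 2D. Of 4 blood and macrophage markers 3 were in the table, with 1 called higher and sums of 435.9 to 1015 CPM in 3D and 980 to 1476 CPM in 2D, of which LYZ made up most. No marker with a row was at 0 in every library, and the part of these markers in the results was not tested. In bulk RNA, fewer cells of a kind and less RNA per cell cannot be told apart.

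Enzymes of cholesterol synthesis were higher in 3D culture along most of the pathway. Among the 27 genes, those tested of its control, of uptake and transport and of esterification did not pass the test in either direction. Of 20 synthesis enzymes, 15 were called higher in 3D and 0 lower in edgeR, with a median log2 fold change of 1.15. Of the 7 other genes, 6 were tested and 0 were called in edgeR, with a median log2 fold change of −0.25. At an unadjusted p under 0.05, 3 of the 6 were lower (SCAP, MYLIP and SOAT2) and 0 higher. All genes were not counted at that threshold, so whether this count stands out cannot be judged. DESeq2 called 1 of the 6 lower, SOAT2, while over all genes it called 2877 higher and 2727 lower. Calls are at an adjusted p under 0.05 in edgeR's quasi-likelihood test, adjusted over all 15314 genes tested, and fold changes are 3D over 2D. Over the 26 genes tested the count was 15 higher and 0 lower, with a median of 0.89, while over all genes tested 36.6% were called, 19.0% higher and 17.6% lower, with a median of 0.02. Without 3D replicate 1 and 2D replicate 2, each of which had the lowest summed level of the synthesis enzymes in its group, 16 were higher and 1 lower. This setting was chosen after seeing the data, and over all genes it called 2177 higher and 2052 lower. With each library corrected for transcript length and GC content, 16 were higher and 3 lower, with a median of 0.83. Over all genes, 2909 were higher and 2272 lower after that correction.

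**Figure D1:**
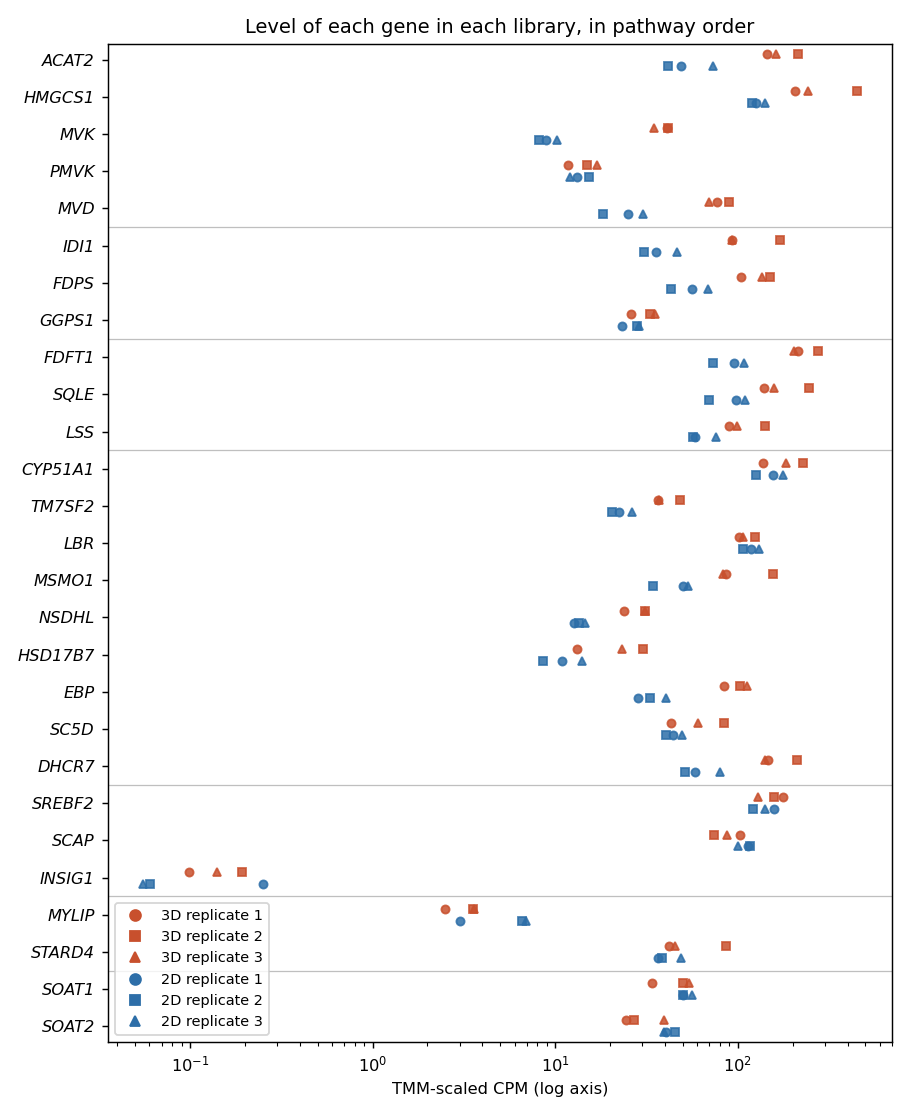
TMM-scaled CPM (log axis) of each of the 27 genes in each library, with genes in pathway order from the first mevalonate step at the top to esterification at the bottom. Points are libraries, orange for 3D and blue for 2D, with the marker shape giving the replicate number. The 3D points lie right of all 2D points for 14 genes, all of them synthesis enzymes, and the INSIG1 points lie near the detection limit.

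**Figure D2:**
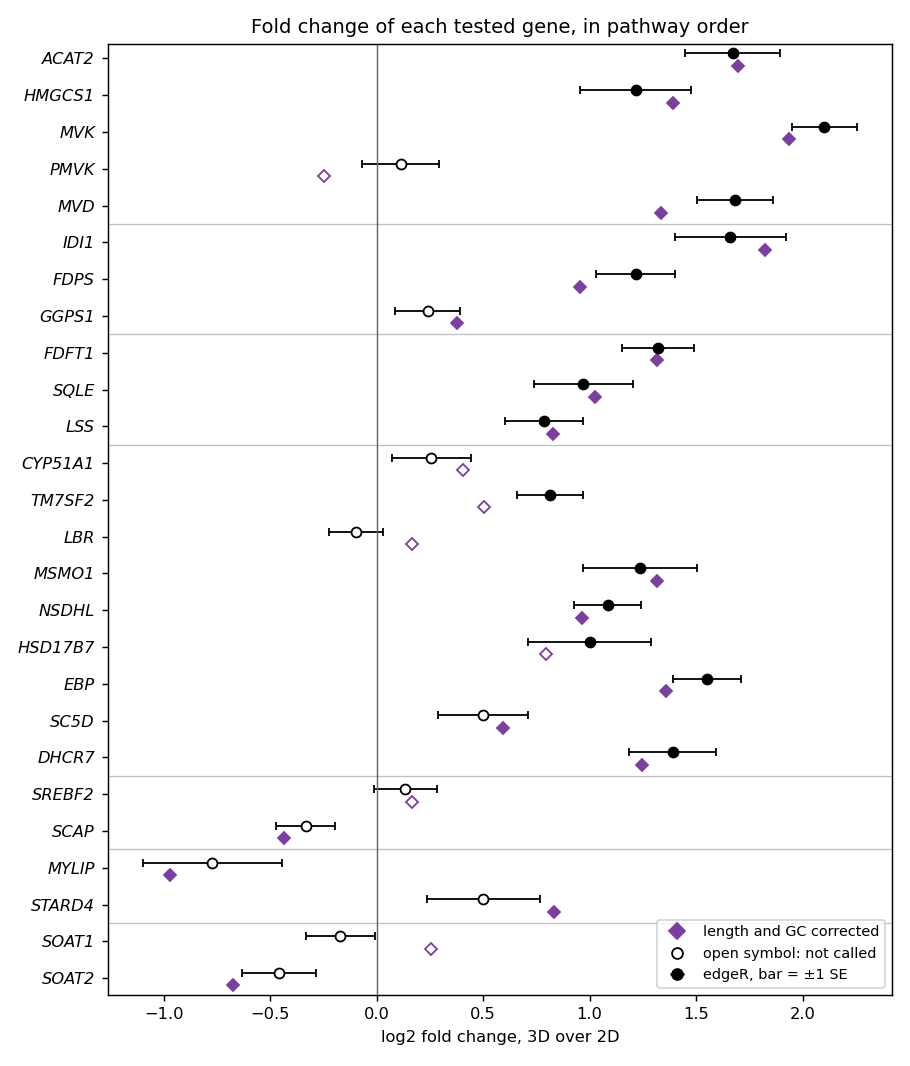
Log2 fold change (3D over 2D) of the 26 tested genes in pathway order. Circles are the edgeR estimates with bars of ±1 SE, diamonds the estimates after correction for transcript length and GC content, and open symbols were not called. MVK lies farthest right at 2.10, and the circles of the control and esterification genes lie within 0.46 of 0.

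Groups that did not overlap were counted too. For 14 of the 26 tested genes every 3D library lay above every 2D library, as for 25.6% of all genes tested, and for 1, SOAT2, every 3D library lay below, as for 24.9% of all genes. The 14 were all synthesis enzymes. HSD17B7 was the called enzyme whose groups overlapped.

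Promoter windows from RefSeq on GRCh38.p14 were matched by symbol for 23 of the 27 genes. In the 250 bases before the start, the letters CCAAT, bound by the factor NF-Y that works beside SREBP proteins, were found on either strand in 19 of the 23, against 37.0% of the 27305 genes with a window. The letters TCACNCCA, the core of a sterol regulatory element, to which SREBP proteins bind, were found in 3 of the 23, MVK, MSMO1 and SREBF2, against 3.92% of genes. GGGCGG, bound by Sp1, was found in 21 of 23 against 46.2%, and the E-box CACGTG in 3 of 23 (SC5D, SCAP and INSIG1) against 7.73%. TCACNCCA can overlap CCAAT by 3 bases, but does not in the stretches printed here. All 12 synthesis enzymes that were called and had a window held CCAAT, as did 6 of the 10 tested genes that were not called. Those without it were PMVK, CYP51A1, LBR and SCAP. Over all tested genes with a window the share with CCAAT was 43.4% among those called higher, 39.1% among those called lower and 41.9% among those not called. A match describes letters only and shows no binding. The stretches of MVK, MSMO1 and SREBF2 are shown because they hold the sterol element core. MVD and FDPS were picked as called genes with CCAAT and without that core. IDI1, EBP and DHCR7, also with CCAAT and without the core, had larger changes than FDPS and are not shown. They run 5′ to 3′ on the strand of the gene, with the core and each CCAAT (or ATTGG, its other strand) in capitals.
MVK, chr12:109573554-109573651, plus strand: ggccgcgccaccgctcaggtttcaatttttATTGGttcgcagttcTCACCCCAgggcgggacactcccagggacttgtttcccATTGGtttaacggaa
MSMO1, chr4:165327468-165327565, plus strand: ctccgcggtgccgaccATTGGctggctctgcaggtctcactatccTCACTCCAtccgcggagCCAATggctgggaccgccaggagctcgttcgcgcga
SREBF2, chr22:41832927-41833024, plus strand: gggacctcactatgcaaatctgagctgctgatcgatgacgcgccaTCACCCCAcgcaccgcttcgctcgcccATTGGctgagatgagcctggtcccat
MVD, chr16:88663162-88663260, minus strand: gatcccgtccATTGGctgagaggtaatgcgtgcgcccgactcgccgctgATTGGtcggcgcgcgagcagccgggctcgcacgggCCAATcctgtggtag
FDPS, chr1:155308680-155308829, plus strand: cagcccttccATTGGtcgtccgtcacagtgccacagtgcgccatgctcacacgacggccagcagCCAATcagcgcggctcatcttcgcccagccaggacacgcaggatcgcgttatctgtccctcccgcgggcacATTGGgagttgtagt

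The mevalonate steps had the largest median log2 fold change among the groups of synthesis steps, at 1.67, with 4 of 5 genes higher. With length and GC content corrected the median was 1.39, again the largest. IDI1, outside these steps, then stood at 1.82 and MVD at 1.335. MVK, the kinase that phosphorylates mevalonate (chromosome 12, 109573255 to 109598118, hg38, plus strand), had 41.0, 41.7 and 34.9 CPM in 3D replicates 1 to 3, against 8.95, 8.18 and 10.2 CPM in 2D replicates 1 to 3. The lowest 3D library stood well above the highest 2D library. Its fold change of 4.29 (log2 2.10, SE 0.15, edgeR adjusted p = 1.9e-05) lay above those of 98.6% of genes tested. The printed MVK stretch lies inside the span the table gives for the gene, which also overlaps MMAB on the opposite strand by 621 bases.

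MVD, which decarboxylates mevalonate diphosphate (chromosome 16, 88651935 to 88663162, minus strand), had 77.2, 89.9 and 69.9 CPM in 3D, against 25.2, 18.3 and 30.3 CPM in 2D. The groups were far apart, with a fold change of 3.21 (log2 1.68, SE 0.18, edgeR adjusted p = 0.000102). ACAT2, which joins the first pair of acetyl-CoA units, had 145.5, 214.4 and 162.4 CPM in 3D, against 49.2, 41.4 and 73.5 CPM in 2D, a fold change of 3.18 (log2 1.67, SE 0.22, edgeR adjusted p = 0.000536). Again every 3D library was higher. The ACAT2 span (chromosome 6, 159760328 to 159779056) overlaps TCP1 by 559 bases and SOD2 by 2203 bases on the opposite strand, and its values were not whole numbers in any library, so shared reads cannot be told apart. SOD2, the mitochondrial superoxide dismutase, had 1808, 3408 and 2935 counts in 3D and 7811, 8021 and 6323 counts in 2D, not scaled for library size.

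HMGCS1, the cytosolic synthase of the next step, had 206.8, 448.8 and 244.0 CPM in 3D, against 126.7, 119.9 and 140.8 CPM in 2D. Replicate 2 stood far above the other 3D libraries, all of which lay above 2D. The log2 fold change of 1.22 (SE 0.26, edgeR adjusted p = 0.00714) was 0.80 without it, the lowest value when each library was left out in turn. PMVK, the second mevalonate kinase, was the exception in this stretch. It had 11.8, 14.9 and 16.9 CPM in 3D libraries and 13.2, 15.3 and 12.0 CPM in 2D libraries, with overlapping groups and a log2 fold change of 0.11 (SE 0.18, edgeR adjusted p = 0.653).

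Of the 3 enzymes that make isoprenoid diphosphates, 2 were higher. IDI1, the isomerase of isopentenyl diphosphate, had 92.6, 170.1 and 93.1 CPM in 3D, against 35.7, 30.5 and 46.5 CPM in 2D, a fold change of 3.16 (log2 1.66, SE 0.26, edgeR adjusted p = 0.00151). All 3D libraries lay above 2D, with replicate 2 highest. FDPS, which makes the farnesyl diphosphate used for squalene (chromosome 1, 155308748 to 155320667), had 104.7, 150.1 and 135.9 CPM in 3D, against 56.5, 42.9 and 68.9 CPM in 2D, a fold change of 2.32 (log2 1.22, SE 0.19, edgeR adjusted p = 0.000723). GGPS1, which lengthens farnesyl to geranylgeranyl diphosphate for protein prenylation, had 26.2, 33.0 and 35.3 CPM in 3D libraries and 23.4, 28.2 and 28.7 CPM in 2D libraries. Its groups overlapped, and the log2 fold change of 0.24 (SE 0.15) had an edgeR adjusted p of 0.245, and 0.38 at 0.0433 with length and GC content corrected. FDPS shares 3805 bases with RUSC1-AS1 on the other strand, and its values were not whole in any library, so shared reads cannot be told apart. RUSC1-AS1 had 78, 198 and 131 counts in 3D and 75, 78 and 102 in 2D, not scaled for library size. Its highest library in each group was the same as for FDPS. The printed FDPS stretch runs into the span given for the gene.

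All 3 enzymes from farnesyl diphosphate to lanosterol were higher in 3D. FDFT1, squalene synthase and the first step that commits to sterols, had 212.6, 276.2 and 202.3 CPM in 3D, against 95.8, 73.0 and 108.1 CPM in 2D, a fold change of 2.496 (log2 1.32, SE 0.17, edgeR adjusted p = 0.000255). SQLE, the squalene epoxidase that uses oxygen, had 139.6, 245.3 and 157.2 CPM in 3D, against 97.4, 69.5 and 109.8 CPM in 2D (log2 0.97, SE 0.23, edgeR adjusted p = 0.0105). LSS, the cyclase that forms lanosterol, had 89.9, 141.4 and 98.8 CPM in 3D, against 58.5, 56.9 and 76.3 CPM in 2D (log2 0.79, SE 0.18, edgeR adjusted p = 0.00698). No library of one group reached into the other for any of these genes, although for LSS the nearest libraries stood at 89.9 CPM in 3D libraries and 76.3 CPM in 2D libraries. The rows of these genes held whole counts in all 6 libraries and overlapped no other row of the table.

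Of 9 enzymes that turn lanosterol into cholesterol, 6 were higher, with a median log2 fold change of 1.00 over the 9. EBP, the isomerase that moves the ring double bond (X chromosome, 48521158 to 48528717), had 83.6, 102.9 and 112.9 CPM in 3D, against 28.6, 33.3 and 40.5 CPM in 2D. It differed most among these enzymes, at a fold change of 2.93 (log2 1.55, SE 0.16, edgeR adjusted p = 7.7e-05). DHCR7, the reductase of 7-dehydrocholesterol, had 145.7, 211.6 and 140.3 CPM in 3D, against 58.6, 51.2 and 80.3 CPM in 2D, a fold change of 2.62 (log2 1.39, SE 0.20, edgeR adjusted p = 0.000678).

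MSMO1 and NSDHL work together with HSD17B7 to remove the methyl groups at carbon 4 of the ring. MSMO1, the oxidase, had 85.9, 156.7 and 83.2 CPM in 3D, against 50.4, 34.4 and 53.6 CPM in 2D (log2 1.24, SE 0.27, edgeR adjusted p = 0.00734). NSDHL, the dehydrogenase, had 23.7, 31.1 and 31.2 CPM in 3D, against 12.7, 13.5 and 14.5 CPM in 2D (log2 1.08, SE 0.16, edgeR adjusted p = 0.000456). HSD17B7, the reductase of this complex, had 13.2, 30.4 and 23.3 CPM in 3D, against 10.9, 8.61 and 14.1 CPM in 2D. Its 3D replicate 1 lay below 2D replicate 3, and the log2 fold change of 1.00 (SE 0.29, edgeR adjusted p = 0.0236) lost its call without 2D replicate 1 (0.97, edgeR adjusted p = 0.0783), 2D replicate 2 (0.83, 0.0773), 3D replicate 2 (0.71, 0.0795) or 3D replicate 3 (0.97, 0.0638). Correction for length and GC content also ended the call (0.80, 0.0565). Its values were not whole in any library. The pseudogene HSD17B7P2 also had a row, at 39, 122 and 46 counts in 3D and 40, 27 and 32 counts in 2D, not scaled for library size.

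Of the enzymes that act at carbon 14, TM7SF2 was called and CYP51A1 and LBR were not. CYP51A1, the cytochrome P450 that removes the methyl group at that carbon, had 137.8, 226.8 and 185.0 CPM in 3D libraries and 156.1, 126.2 and 178.1 CPM in 2D libraries (log2 0.26, SE 0.19, edgeR adjusted p = 0.302). The groups overlapped. Its values were not whole in any library, and 2 of its pseudogenes had rows. Of these, CYP51A1P2 had 51, 106 and 56 counts in 3D and 93, 84 and 117 counts in 2D, not scaled for library size. The next reduction can be done by either of 2 enzymes. TM7SF2 had 36.7, 48.1 and 36.9 CPM in 3D, against 22.4, 20.5 and 26.4 CPM in 2D (log2 0.81, SE 0.16, edgeR adjusted p = 0.00232, and 0.50 at 0.0677 with length and GC content corrected). LBR, which is also a lamin receptor of the nuclear envelope, had 101.8, 124.8 and 106.4 CPM in 3D libraries and 118.5, 106.6 and 131.2 CPM in 2D libraries, with overlapping groups (log2 −0.10, SE 0.13, edgeR adjusted p = 0.585). SC5D, the desaturase that precedes DHCR7, had 43.2, 84.3 and 60.6 CPM in 3D libraries and 44.0, 40.3 and 49.2 CPM in 2D libraries. It was not called (log2 0.50, SE 0.21, edgeR adjusted p = 0.0872), and was called at 0.69 without 3D replicate 1, its lowest 3D library (0.00576), and at 0.59 with length and GC content corrected (0.0166).

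The libraries of one group differed together across these enzymes. Of the 20, 16 were highest among 3D libraries in replicate 2 and 15 were lowest in replicate 1, and 19 were highest among 2D libraries in replicate 3 and 16 were lowest in replicate 2. Over all genes tested, 35.1% were highest among 3D libraries in replicate 2 and 34.6% highest among 2D libraries in replicate 3. PMVK was the enzyme with another highest library in 2D, and PMVK, GGPS1, NSDHL and EBP were highest in 3D replicate 3. Summed over the 20 enzymes, 3D replicates 1 to 3 stood at 1819, 2843 and 2031 CPM, against 1093, 939 and 1293 CPM for 2D. The lowest 3D sum exceeded the highest 2D sum.

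**Figure D3:**
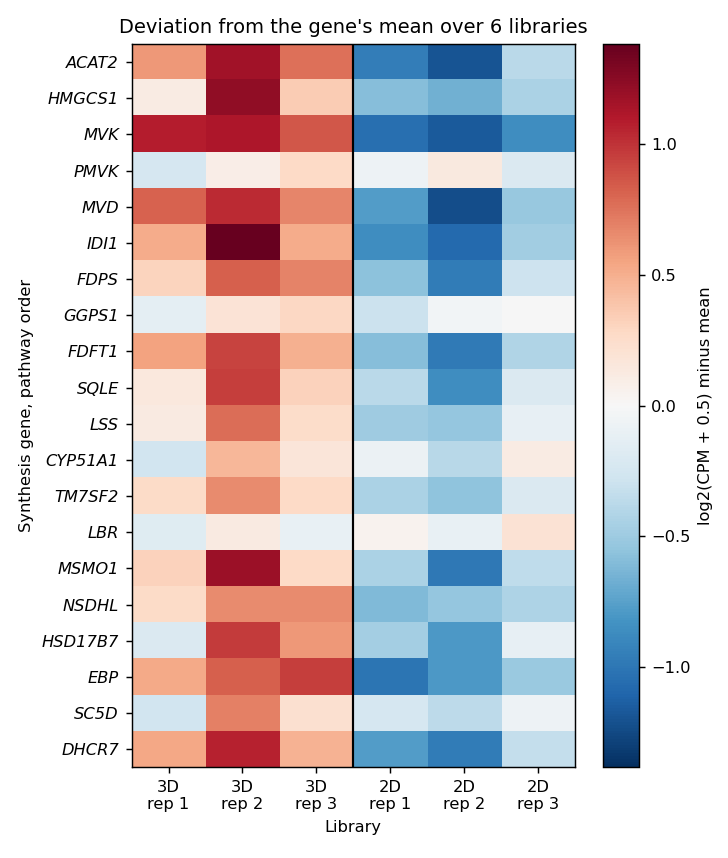
Heat map of log2(CPM + 0.5) minus the gene's mean over the 6 libraries for the 20 synthesis enzymes in pathway order, with 3D libraries left of 2D libraries. Median deviations of 3D replicates 1 to 3 were 0.27, 0.88 and 0.41, against −0.53, −0.79 and −0.31 for the 2D columns; 3D replicate 2 has the highest median.

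Per length of transcript, the order of the enzymes differed between the cultures. In 3D, FDPS (88.1 ± 15.7 CPM per kilobase), FDFT1 (86.6 ± 15.1) and HMGCS1 (85.5 ± 37.2) had the highest levels and did not differ beyond their spread (SD, n = 3). CYP51A1, at 57.1 ± 13.9 CPM per kilobase in 3D, ranked 6 of 27 there, while in 2D it ranked 1 with 47.8 ± 8.13, followed by FDPS with 38.0 ± 8.79 and HMGCS1 with 36.8 ± 3.03, and their SD ranges overlapped that of CYP51A1. MVK had 14.3 ± 1.36 CPM per kilobase in 3D and 3.32 ± 0.373 in 2D. In 2D this was the lowest level of the 20 enzymes, and in 3D its mean lay above those of PMVK (11.4 ± 2.02) and GGPS1 (10.9 ± 1.64). The SD ranges of MVK and PMVK overlapped in 3D, and in 3D replicate 3 MVK was below PMVK, at 12.7 against 13.2 CPM per kilobase.

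Of the genes among the 27 that control the pathway, SREBF2 and SCAP did not pass the test and INSIG1 was too low to test. SREBF2 had 176.5, 157.9 and 129.1 CPM in 3D libraries and 158.8, 121.4 and 141.6 CPM in 2D libraries, with overlapping groups (log2 0.14, SE 0.15, edgeR adjusted p = 0.497). SCAP, which carries SREBP2 to the Golgi, had 102.5, 74.0 and 87.2 CPM in 3D libraries and 114.4, 117.1 and 100.1 CPM in 2D libraries. Of the 3D libraries, 2 lay below every 2D library, and the test was not passed (log2 −0.33, SE 0.14, edgeR adjusted p = 0.0801). It was passed at −0.47 without 3D replicate 1 (0.0133) and at −0.43 with length and GC content corrected (0.00694). When any other single library was left out, SCAP was not called (edgeR adjusted p of 0.0811 to 0.201). INSIG1, which retains SCAP and is itself a known SREBP target (chromosome 7, 155297776 to 155310236), had 1, 3 and 2 counts in 3D libraries and 4, 1 and 1 in 2D libraries, near the 3 counts that serve as the detection floor, so no fold change is given. Why a gene usually well expressed in liver cells had so few counts was not tested. Its relative INSIG2 stood at 129.0 ± 32.9 CPM in 3D libraries and 117.0 ± 5.89 CPM in 2D libraries (SD, n = 3 each, edgeR adjusted p = 0.528).

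Among the 27 genes, none of uptake, transport or esterification passed the test in edgeR. MYLIP, a ubiquitin ligase that marks lipoprotein receptors for breakdown, had 2.48, 3.55 and 3.59 CPM in 3D libraries and 3.01, 6.61 and 6.94 CPM in 2D libraries (log2 −0.77, SE 0.33, edgeR adjusted p = 0.0831). The 2D libraries were themselves split, and without 2D replicate 1, the low one, the value was −1.07 and was called (0.0191). With length and GC content corrected it was also called (−0.97, 0.0446). When any other single library was left out, MYLIP was not called (edgeR adjusted p of 0.117 to 0.263). STARD4, a carrier of cholesterol through the cytosol, had 42.1, 86.6 and 45.6 CPM in 3D libraries and 36.4, 38.4 and 48.7 CPM in 2D libraries (log2 0.50, SE 0.26, edgeR adjusted p = 0.171). Only 3D replicate 2 stood above all 2D libraries. With length and GC content corrected the value was 0.83 (0.00816), and without 3D replicate 2 it was 0.09.

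SOAT1, the widely expressed enzyme of cholesterol esterification, had 34.0, 50.2 and 54.1 CPM in 3D libraries and 50.02, 49.95 and 56.0 CPM in 2D libraries (log2 −0.17, SE 0.16, edgeR adjusted p = 0.445). SOAT2, the form of liver and intestine, had 24.6, 27.1 and 39.4 CPM in 3D, against 40.6, 45.2 and 39.5 CPM in 2D. All 3D libraries lay below 2D, 3D replicate 3 only just, and the test was narrowly missed (log2 −0.46, SE 0.17, edgeR adjusted p = 0.0573). It was passed at −0.70 without 3D replicate 3 (0.00660), at −0.68 with length and GC content corrected (0.0124), and with DESeq2 (adjusted p = 0.0422). When any other single library was left out, SOAT2 was not called (edgeR adjusted p of 0.0873 to 0.156).

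Ratios of 2 genes inside one library, with 0.5 added to each count, do not depend on how libraries are scaled. They are not corrected for length or GC content. A two-sided exact permutation test, which cannot go below p = 0.1 with 3 against 3 libraries, was run on 5 pairs of related roles. The pairs were chosen with earlier results of these data known, so the p-values do not describe pairs picked blind to them. TM7SF2 over LBR was 0.361, 0.386 and 0.347 in counts in 3D libraries, against 0.189, 0.192 and 0.202 in 2D libraries, a mean log2 difference of 0.91 (exact p = 0.1, adjusted over the 5 pairs 0.167). The groups did not overlap. The 2 transcripts differ in GC content, at 62.0% for TM7SF2 and 37.8% for LBR, and with length and GC content corrected their log2 fold changes were 0.50 and 0.16, closer together than the ratio shows. FDPS over GGPS1 was 3.99, 4.54 and 3.85 in 3D, against 2.42, 1.52 and 2.4 in 2D, a mean log2 difference of 0.99 (exact p = 0.1, adjusted 0.167), again without overlap. With length and GC content corrected the log2 fold changes were 0.96 for FDPS and 0.38 for GGPS1, also closer together. SREBF2 over SREBF1 was 1.82, 1.84 and 1.44 in 3D, against 2.47, 1.85 and 2.11 in 2D, a mean log2 difference of −0.33 (exact p = 0.1, adjusted 0.167), where the nearest libraries almost touched. With length and GC content corrected the log2 fold changes were 0.17 for SREBF2 and 0.33 for SREBF1, again closer together than the ratio shows. SOAT1 over SOAT2 was 1.38, 1.85 and 1.37 in 3D and 1.23, 1.10 and 1.42 in 2D, with overlap (a mean log2 difference of 0.29, exact p = 0.3, adjusted 0.375). With length and GC content corrected the log2 fold changes were 0.25 for SOAT1, of turned sign and not called, and −0.68 for SOAT2, farther apart than the ratio shows. INSIG1 over INSIG2 rested on so few INSIG1 counts that its ratios say little (exact p = 0.4, adjusted 0.4).

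**Figure D4:**
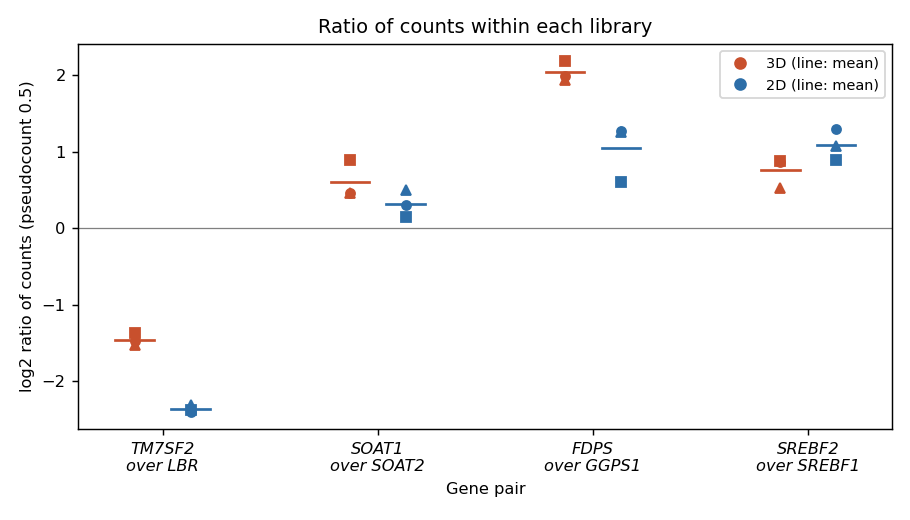
Log2 ratio of counts of 4 gene pairs within each library, 3D left and 2D right in each pair, with lines at group means and the marker shape giving the replicate (circle 1, square 2, triangle 3). The TM7SF2 over LBR points lie between −1.53 and −1.37 in 3D and between −2.4 and −2.31 in 2D, whereas the SOAT1 over SOAT2 points overlap.

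Genes around the pathway were described from lists drawn up by role, of which 60 of 65 genes had rows and were tested. In all, 21 were called higher and 12 lower in 3D, with a median log2 fold change of 0.06, where 19.0% of all genes tested were higher and 17.6% lower. The share called lower was near that of all genes. The smaller lists below are too short to be read as standing apart from those shares. Genes that supply acetyl-CoA and electrons were mostly higher, with 7 of 9 higher and 0 lower in edgeR and in DESeq2, and a median of 0.79. At an unadjusted p under 0.05, where all genes were not counted, 0 were lower. With length and GC content corrected, 7 were higher and 1 lower. CYB5A, the cytochrome b5 that passes electrons to sterol oxidases, stood at 110.6 ± 6.34 CPM in 3D libraries and 40.7 ± 3.42 CPM in 2D libraries (log2 1.44, SD, n = 3 each, edgeR adjusted p = 2.9e-05). SLC25A1, the carrier that exports citrate from mitochondria, stood at 178.9 ± 2.72 CPM in 3D libraries and 69.6 ± 12.9 CPM in 2D libraries (log2 1.36). ACLY, which splits that citrate into acetyl-CoA, stood at 265.8 ± 46.2 CPM in 3D libraries and 141.8 ± 19.2 CPM in 2D libraries (log2 0.91). POR, the electron donor of CYP51A1 and SQLE, was not called, at 371.3 ± 65.1 CPM in 3D libraries and 425.2 ± 43.7 CPM in 2D libraries (log2 −0.20, edgeR adjusted p = 0.335, and −0.43 at 0.0139 with length and GC content corrected).

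Of 11 genes of sterol sensing and SREBP processing, 2 were higher and 4 lower, with a median of −0.28, and with length and GC content corrected 2 were higher and 3 lower, with a median of −0.08. MBTPS1 and MBTPS2, the proteases that cut SREBP proteins loose in the Golgi, had log2 fold changes of −0.73 and −0.82 and levels of 107.0 ± 4.16 and 25.6 ± 3.75 CPM in 3D, against 177.4 ± 13.4 and 45.2 ± 0.799 CPM in 2D. TMEM97, a sterol-regulated membrane protein, stood at 148.4 ± 27.04 CPM in 3D libraries and 66.5 ± 17.5 CPM in 2D libraries (log2 1.16, edgeR adjusted p = 0.00146), close to the median of the synthesis enzymes. SREBF1, which encodes the factor for fatty acid synthesis genes, was higher by 0.47.

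Of 8 genes of uptake and endosomal release 3 were higher and 3 lower, and with length and GC content corrected 2 were higher and 4 lower. LRP8, a receptor of the lipoprotein receptor family, was higher by 1.16 on the log2 scale, at 38.1 ± 6.50 CPM in 3D libraries and 17.0 ± 3.87 CPM in 2D libraries, and VLDLR, of the same family, had a log2 fold change of −1.50, at 6.17 ± 2.47 CPM in 3D libraries and 17.7 ± 0.490 CPM in 2D libraries. LRP1, a large receptor of that family, was lower at −0.65, a call lost without 2D replicate 1 (edgeR adjusted p = 0.0731). NPC1 and NPC2 hand cholesterol out of lysosomes. NPC1 was lower, at 64.9 ± 6.34 CPM in 3D libraries and 119.7 ± 4.86 CPM in 2D libraries (log2 −0.88, edgeR adjusted p = 0.000314), while NPC2 was higher by 0.49. The NPC2 call was lost after correction for length and GC content (0.17, edgeR adjusted p = 0.332) and without 2D replicate 1, 2D replicate 2 or 3D replicate 3 (0.0661 to 0.120). LIPA, the lysosomal lipase that frees cholesterol from esters, was higher by 0.53 at an edgeR adjusted p of 0.0495. Its groups overlapped, and the call was lost without any single library other than 3D replicate 1 (0.0555 to 0.182).

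Among 8 genes of ester turnover and sterol transport 3 were higher and 2 lower, and with length and GC content corrected 3 and 1. CES1, a liver carboxylesterase, stood at 270.5 ± 64.0 CPM in 3D libraries and 98.6 ± 12.0 CPM in 2D libraries (log2 1.46), and NCEH1, a neutral cholesterol ester hydrolase, at 20.5 ± 3.83 CPM in 3D libraries and 58.2 ± 5.54 CPM in 2D libraries (log2 −1.50, edgeR adjusted p = 7.7e-05). GRAMD1B, a carrier of sterol from the plasma membrane, was higher by 2.11 from a low level (2.88 ± 1.84 CPM in 3D libraries and 0.664 ± 0.262 CPM in 2D libraries), SCP2 was higher by 0.57, and OSBP, a sterol exchanger at the Golgi, had a log2 fold change of −0.34. The OSBP call was lost after correction for length and GC content (−0.14, edgeR adjusted p = 0.255) and without any of the 2D libraries or 3D replicate 3 (0.0731 to 0.142).

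Of 6 genes of the LXR receptors and of efflux, 0 were higher and 2 lower in edgeR, and 0 higher and 3 lower in DESeq2. At an unadjusted p under 0.05, where all genes were not counted, 0 were higher and 3 lower. ABCG5, a subunit of the sterol exporter of the liver, had 17.8 ± 0.800 CPM in 3D libraries and 26.6 ± 3.35 CPM in 2D libraries (log2 −0.58, edgeR adjusted p = 0.0103, and 0.0522 without 2D replicate 1), and SMPDL3A, an LXR target in macrophages, had a log2 fold change of −0.96. ABCA1, which loads cholesterol onto apolipoproteins, was not called, at 99.6 ± 29.5 CPM in 3D libraries and 140.9 ± 14.1 CPM in 2D libraries (log2 −0.50, edgeR adjusted p = 0.0573). DESeq2 called ABCA1 lower (adjusted p = 0.0287), and after correction for length and GC content its log2 fold change was −0.08. The LXR genes NR1H3 and NR1H2 had log2 fold changes of −0.05 and −0.001, with adjusted p of 0.828 and 0.996 in edgeR. Of 14 genes that use isoprenoids, 3 were higher and 1 lower with a median of 0.06. PDSS1, of ubiquinone synthesis, was higher by 0.81, ICMT, which methylates prenylated proteins, by 0.54, and RABGGTA by 0.43, while FNTA, the shared subunit of farnesyl and geranylgeranyl transferases, had a log2 fold change of −0.52. The RABGGTA call was lost after correction for length and GC content (0.18, edgeR adjusted p = 0.196) and without any single library other than 3D replicate 2 (0.0508 to 0.122). Of 4 tested genes of oxysterols and bile acids 3 were higher, and 2 with length and GC content corrected. HSD3B7, of bile acid synthesis, stood at 49.98 ± 11.4 CPM in 3D libraries and 22.9 ± 3.19 CPM in 2D libraries (log2 1.13), CYP8B1 was higher by 0.77 and CYP27A1 by 0.40, and CYP7A1, the first enzyme of the classical bile acid route, had 2.95 ± 0.715 CPM in 3D libraries and 3.46 ± 0.683 CPM in 2D libraries (edgeR adjusted p = 0.543). The CYP27A1 call was lost after correction for length and GC content (0.16, edgeR adjusted p = 0.216) and without 2D replicate 1, 2D replicate 2 or 3D replicate 3 (0.0822 to 0.127), and the CYP8B1 call without any single library other than 3D replicate 3 (0.0530 to 0.126).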

How the data were processed

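Gene counts of 6 HepG2 libraries, 3 from a 3D bioreactor and 3 from 2D plates, were used as deposited, in a table of estimated counts per gene that the authors had not scaled to a common total. The submitters' processing notes name the aligner STAR 2.4.1d, the Partek software and the build hg38, with no annotation, counting settings or use of strand stated. Of all deposited counts, 76.4% were whole within 0.05, as were all 6 values of 19 of the 27 genes described. The values of ACAT2, HMGCS1, FDPS, CYP51A1 and HSD17B7 were whole in no library, those of IDI1 and SREBF2 in 1 and those of MVK in 4. No gene had a total below 10. Groups and replicate numbers came from the sample titles. Counts were rounded and tested with edgeR 4.0.16 in R 4.3.3 (filterByExpr, TMM, robust quasi-likelihood fit with culture as the term, Benjamini-Hochberg adjustment over 15314 genes, calls at 0.05). The SE was derived from the F statistic. CPM are TMM-scaled. The floor of 3 counts, for counting error only, equals 0.167 to 0.315 CPM by total counts without TMM scaling. Replicates of a group differed by more than sampling noise (chi-square per degree of freedom 10.3 to 26.7). Transcript length and GC content came from the longest principal transcript in GENCODE 29, matched by symbol and overlap for 16117 of the 19846 genes in the table. Of the genes tested, 88.1% had both values. Length and GC content were corrected for by loess with a span of 0.5. DESeq2 1.42.0, other scalings and filters, a replicate block and leaving out libraries were alternatives. Leaving out 2D replicate 2 and 3D replicate 1 together was added after seeing the data. The fit was tested on simulated data. The members, lists, pairs and motifs were chosen with earlier results of these data known. Genes named are the 27, up to 3 called genes a direction in each related list at 1 CPM or more in the higher group, overlapping genes and markers, except a gene that is not reported here; POR, ABCA1, INSIG2, NR1H2, NR1H3, CYP7A1 and the pseudogenes were named after their values were seen.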

Additional observations from a re-analysis of the deposited data

How the results depend on the processing

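Of the 15 genes of cholesterol synthesis called higher in 3D, 12 were called higher under each of 15 alternatives (ACAT2, HMGCS1, MVK, MVD, IDI1, FDPS, FDFT1, SQLE, LSS, NSDHL, EBP and DHCR7), and no tested gene of the 26 that was called under any setting changed sign. No call moved with RLE scaling, with scaling that left out mitochondrial and the 50 most abundant genes, without a low-count filter or with a filter of 1 CPM in 3 samples. The number called lower, 0, was 1 with DESeq2 (SOAT2), 2 with the replicate block (MYLIP and SOAT2), 3 with length and GC content corrected, 3 with both together (SCAP, MYLIP and SOAT2 in each), 1 without 2D replicate 2 and 3D replicate 1 together (SCAP), and between 0 and 1 when each library was left out in turn. Over all genes, the number called higher was 2910 and lay between 1938 (without 2D replicate 1) and 2817 in those runs. With the replicate block MSMO1 was at 1.19 with an edgeR adjusted p of 0.0502. Same-numbered libraries did not deviate together (correlations of 0.05, −0.01 and −0.08), so the numbers were not taken to pair them. In the 100 bases before the start the sterol element core was in 0 of 23 genes, against 3 in 250 bases, and CCAAT in 14. The direction of the within-library ratios was the same with pseudocounts of 0 and 5 and without each library. INSIG1, at 1 to 4 counts per library, was too low to test, and the other genes of the 27 had at least 25 counts in every library. Correction for length and GC content turned the sign of 3 genes that were called under neither setting (PMVK, LBR and SOAT1).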
